A study of Mus musculus with 8 samples.

Results

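The genes described here are 10 components of the Notch pathway among the 41457 genes listed for each sample of mouse keratinocytes (KCs), the epithelial cells of the epidermis. They were chosen by symbol and comprise the receptors Notch1, Notch2 and Notch3, the ligands Jag1, Jag2 and Dll1, the nuclear mediator Rbpj and the target genes Hes1, Hey1 and Nrarp. The cells were wildtype C57BL/6 KCs from the tail of adult mice, grown without treatment in serum-free medium with 0.06 mM calcium for 1 week (4 samples) or for 3 weeks (4 samples). The preparations are described as 4 independent experiments, and the comparison asks how the transcripts of KCs differ between short and prolonged culture. Poly(A) RNA was sequenced, and both the reads on exons and RPKM values, which divide them by exon length and by sequencing depth, were available for every sample. RPKM values served to compare levels between genes, whereas edgeR was run on the exon reads for the log2 changes, given as 3 weeks over 1 week.

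Notch receptors are transmembrane proteins that bind ligands of the Jagged and Delta families on neighbouring cells. Binding lets ADAM proteases and then gamma-secretase cut the receptor, and the freed intracellular domain enters the nucleus, joins the DNA-binding protein RBPJ and turns on genes of the HES and HEY families, which encode transcriptional repressors, and Nrarp, which encodes a feedback inhibitor. In the epidermis, Notch signalling is known for driving basal KCs out of the cell cycle and into the suprabasal layers, and Hes1 is known for keeping spinous cells from maturing too early.

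The samples held between 13896807 and 20026084 exon reads at 1 week and between 14096649 and 18127283 at 3 weeks. Of the 7 KC markers, all were above 1 RPKM in at least 1 sample, and they summed to between 13227 and 15529 RPKM at 1 week and between 7873 and 9521 RPKM at 3 weeks. Fibroblast markers summed to at most 4.65 RPKM, leukocyte markers to at most 2.19 RPKM and Schwann cell markers to at most 0.471 RPKM. Merkel cell markers summed to at most 0.0537 RPKM at 1 week and lay between 0.283 and 0.529 RPKM at 3 weeks. The 3-week sum came from Krt20 alone, with at most 19 reads in a sample, and Atoh1 and Isl1 were at 0 RPKM there. Melanocyte markers summed to between 3.18 and 20.9 RPKM at 1 week and to between 1.26 and 5.50 RPKM at 3 weeks, and their part in the Notch gene values was not tested. Among the libraries, 3 weeks replicate 3 stood apart, with RPKM values that summed to 477197 over all genes against 330529 to 370490 in the other samples.

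Of the 10 genes, 9 had enough reads to be tested. Jag2 was lower after 3 weeks in every sample, by 3.34-fold, and Jag1 and Notch3 were higher. These calls of 2 higher genes stand beside 15.7% of all 12590 tested genes called higher, and the call of 1 lower gene beside 17.0% called lower. In either direction 32.8% of all tested genes were called. The other 6 tested genes, Notch1, Notch2, Dll1, Rbpj, Hes1 and Nrarp, did not pass an adjusted p-value of 0.05 in edgeR's quasi-likelihood test. The median log2 change of the 9 tested genes was 0.18, beside 0.03 over all tested genes. Hey1 was at or near 0 reads in all samples.

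**Figure D1:**
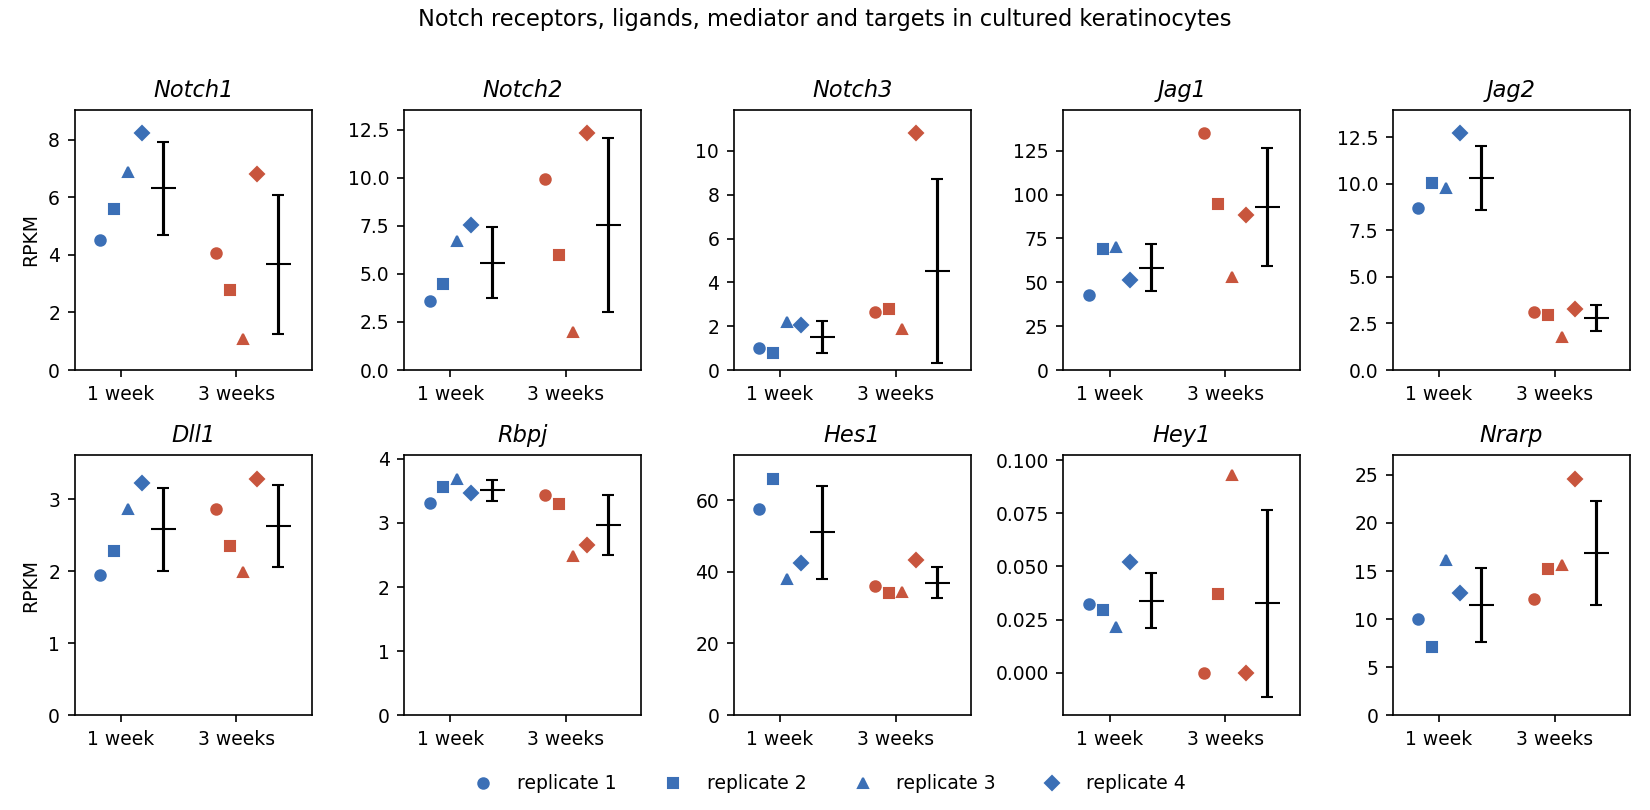
RPKM of each of the 10 genes in the 4 samples of KCs cultured for 1 week (blue) and the 4 samples cultured for 3 weeks (red), with the mean and SD of each group as a black bar, and with a vertical scale of its own in each panel. The 3-week values of Jag2 lie between 1.75 and 3.30 RPKM, all below the 1-week values, and replicate 4 at 3 weeks stands apart in Notch3 at 10.8 RPKM.

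The upstream sequences of the receptor genes are shown first because the shares of Notch1 and Notch3 among the receptor transcripts differed without overlap between the time points. Each is the 250 bases before a RefSeq start site on GRCm38.p6, written 5′ to 3′ on the strand of the gene. Capitals mark the HES N-box, CACNAG on either strand, a motif that HES repressors are known to bind. The Notch1 window is chr2:26503823-26504072 (minus strand) and its start site lies 12841 bases inside Notch1 as listed. That of Notch2 is chr3:98013288-98013537 (plus strand), and that of Notch3 is chr17:32166891-32167140 (minus strand).
Notch1: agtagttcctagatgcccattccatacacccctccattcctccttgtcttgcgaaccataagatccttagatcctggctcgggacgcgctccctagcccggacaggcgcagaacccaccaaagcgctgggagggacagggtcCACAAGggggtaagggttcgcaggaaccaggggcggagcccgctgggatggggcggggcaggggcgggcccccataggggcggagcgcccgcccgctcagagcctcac
Notch2: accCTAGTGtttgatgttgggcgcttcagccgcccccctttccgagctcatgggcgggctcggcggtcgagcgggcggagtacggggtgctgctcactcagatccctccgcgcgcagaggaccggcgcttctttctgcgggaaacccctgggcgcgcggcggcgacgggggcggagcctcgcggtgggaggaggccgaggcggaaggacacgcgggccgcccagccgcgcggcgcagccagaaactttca
Notch3: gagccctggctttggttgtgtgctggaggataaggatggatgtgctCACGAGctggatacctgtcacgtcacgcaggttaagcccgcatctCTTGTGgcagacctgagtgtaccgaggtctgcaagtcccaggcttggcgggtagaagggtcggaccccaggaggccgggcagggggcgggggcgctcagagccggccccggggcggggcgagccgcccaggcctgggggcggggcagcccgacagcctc

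Notch1 and Notch2 each held 1 N-box in these windows, whereas Notch3 held 2, at 204 and 159 bases before the start. Among the 8 of the 10 genes with an entry in the RefSeq promoter table, 4 held an N-box, namely the receptors and Nrarp, which had 2. The target genes Hes1 and Hey1 had no entry, so their upstream sequences were not searched. The same letters occurred in 36.7% of all 32851 promoter windows of this length. The RBPJ core GTGGGAA was found on neither strand in any of the 8 genes, and in 5.42% of all windows. Its last 6 letters, TGGGAA, occurred in Rbpj alone, against 21.6% of all windows. The start sites of the Rbpj windows lie 124194 and 124334 bases inside Rbpj as listed. The ligand windows differed in base composition. The window before the Jag2 start held 54 CpG dinucleotides and was 87.2% G or C, whereas that of Jag1 held 20 and was 57.2% G or C, beside a median of 6 CpG and 52.4% over all windows. Only 0.0152% of all windows held as many CpG as that of Jag2. The Jag2 start site lies 281 bases inside Jag2 as listed, so its whole window lies within the listed gene. That of Jag1 lies 124 bases inside Jag1 as listed. A match of letters is a description of the sequence and not a binding site.

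The receptor genes were expressed at a few RPKM. Notch1 (ENSMUSG00000026923, chromosome 2 of GRCm38, 26457903 to 26516663), the receptor best known from basal and spinous KCs, was at 4.52, 5.59, 6.89 and 8.22 RPKM in replicates 1 to 4 at 1 week. At 3 weeks the values were 4.05, 2.77, 1.08 and 6.81 RPKM. The 3-week samples of replicates 1, 2 and 3 lay below all 1-week samples, whereas replicate 4 lay inside their range. The mean was 6.30 ± 1.60 RPKM in the younger and 3.68 ± 2.42 RPKM in the older cultures (SD, n = 4). The log2 change was -0.65 (standard error, SE, of 0.43, edgeR adjusted p = 0.282). The size depended on single samples. Without 3 weeks replicate 4 the log2 change was -1.10 and passed the threshold (edgeR adjusted p = 0.0495), and without 3 weeks replicate 3 it was -0.38 (edgeR adjusted p = 0.378).

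Notch2 (ENSMUSG00000027878, chromosome 3, 98013527 to 98150361), a second receptor of the epidermis, was at 3.58, 4.49, 6.73 and 7.55 RPKM at 1 week. Its 3-week values of 9.94, 5.96, 1.96 and 12.3 RPKM surrounded these, with replicate 3 below all 1-week samples and replicates 1 and 4 above them. The log2 change was 0.56 (SE 0.46, edgeR adjusted p = 0.381), and the spread between replicates was larger than the difference between 5.59 ± 1.86 and 7.54 ± 4.55 RPKM (SD, n = 4). Without 3 weeks replicate 3 the log2 change was 0.85 (edgeR adjusted p = 0.0666).

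Notch3 (ENSMUSG00000038146, chromosome 17, 32120820 to 32166880) encodes a receptor that is also well known from the mural cells of blood vessels. It was at 1.02, 0.754, 2.20 and 2.04 RPKM at 1 week, from 125 to 290 reads per sample. At 3 weeks it was at 2.64, 2.80, 1.87 and 10.8 RPKM, from 247 to 1276 reads. Replicates 1, 2 and 4 at 3 weeks were above all 1-week samples, and replicate 3 lay among them. After TMM scaling, which corrects for the composition of each library, replicate 3 was also above them, at 18.2 CPM (counts scaled to library size) against at most 17.1 CPM at 1 week. Notch3 was higher at 3 weeks, with a log2 change of 1.72 (SE 0.58, edgeR adjusted p = 0.0472). A large part of this size came from replicate 4, without which the log2 change was 0.88 (edgeR adjusted p = 0.0896), and the call was kept in 8 of 19 alternatives. Leaving out any single sample other than 3 weeks replicate 3 took the call away, with edgeR adjusted p-values between 0.0525 and 0.126, and without that replicate the log2 change was 1.94 (edgeR adjusted p = 0.0324). Of the reads on Notch3, 59.9% mapped to a single place, and 45.6% of the gene is overlapped by a gene on the opposite strand, Gm17276, which had at most 3 reads in any sample.

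Markers of mural cells were low in all samples. The RPKM values of Rgs5, Cspg4, Pdgfrb, Kcnj8, Abcc9 and Myh11 summed to between 0.512 and 0.876 at 1 week and to between 0.198 and 1.79 at 3 weeks. Cspg4 and Pdgfrb, the pair that was tested, were both lower at 3 weeks. Myh11, the smooth muscle myosin, was not tested and went the other way, with means of 0.0290 RPKM at 1 week and 0.778 RPKM at 3 weeks. Its 3-week values ranged from 0.0320 to 1.50 RPKM, the highest in replicate 4, and it had up to 171 reads in a sample. Kcnj8 and Abcc9 had no more than 3 reads in any sample, and the part of such cells in the Notch3 values was not tested. In bulk RNA, fewer cells of a type and less RNA per cell cannot be told apart.

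The libraries also differed in their share of reads on long transcripts, and within each time point Notch1 and Notch2 ranked as this share did. The receptor genes have long transcripts, with listed exon lengths of 14232 bases for Notch1, 10782 for Notch2 and 8044 for Notch3. The 3-week sample of replicate 3, in which Notch1 and Notch2 were lowest, also had the smallest share of exon reads on genes with more than 8 kilobases of exon, at 9.38%. Replicate 4 at 3 weeks, the highest sample for Notch2 and Notch3, had the largest share, at 18.2%. Other samples did not follow this order. The 3-week sample of replicate 1 had a share of 17.6%, yet its Notch1 value lay below all 1-week samples. The lowest sample for Notch3, 1 week replicate 2, had a share of 13.3%. The 1-week samples ranged from 11.7% to 14.1%, and the part of this property in the receptor values was not tested. The summed RPKM of the receptors varied from 4.92 to 29.9 at 3 weeks and from 9.12 to 17.8 at 1 week.

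Shares within a sample do not depend on library size, and they separated the time points for Notch1 and Notch3. Of the summed receptor RPKM, Notch1 made up 49.6%, 51.6%, 43.5% and 46.1% in the 1-week samples. In the 3-week samples its share was 24.4%, 24.0%, 22.0% and 22.8%, so the groups did not overlap. The mean was 47.7% ± 3.58 at 1 week and 23.3% ± 1.09 at 3 weeks (SD, n = 4). The share of Notch3 was 10.9% ± 2.88 at 1 week, with at most 13.9%, and 28.6% ± 10.4 at 3 weeks, with at least 15.9%. Notch2 held 41.4% ± 1.53 and 48.1% ± 9.37, and its groups overlapped. The ratio of Notch1 to Notch2 lay between 1.02 and 1.26 in the 1-week samples and between 0.408 and 0.553 in the 3-week samples. Thus at 1 week Notch1 was the higher of this pair in every sample, and at 3 weeks Notch2 was. With only the reads that mapped to a single place, the share of Notch1 was 47.9% at 1 week and 24.1% at 3 weeks, and that of Notch3 was 7.14% and 20.8%. The share of Notch2 was then 44.9% at 1 week, with at most 46.2%, and 55.1% at 3 weeks, with at least 48.3%, so that its groups did not overlap with these reads. These shares were not tested.

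**Figure D2:**
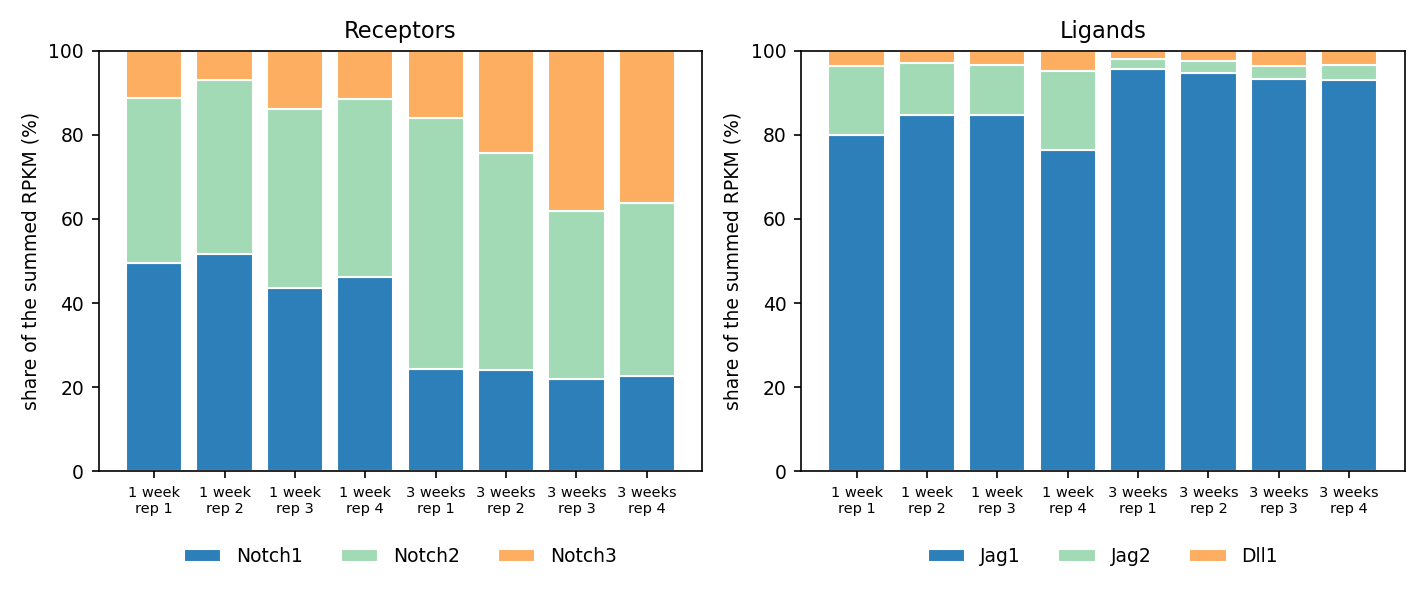
Share of each receptor (left) and each ligand (right) in the summed RPKM of its class, in percent, for each of the 8 samples. Notch1 takes between 43.5% and 51.6% of the receptor RPKM at 1 week and between 22.0% and 24.4% at 3 weeks, and Jag2 takes between 11.8% and 18.9% of the ligand RPKM at 1 week and at most 3.47% at 3 weeks.

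Among the ligands, Jag1 was the most abundant at both times and Jag2 showed the clearest difference. Jag2 (ENSMUSG00000002799, chromosome 12, 112907819 to 112929776), a Jagged ligand known from basal KCs, was at 8.71, 10.1, 9.76 and 12.7 RPKM at 1 week. It was at 3.12, 2.98, 1.75 and 3.30 RPKM at 3 weeks. Every 3-week sample was below every 1-week sample, from 200 to 405 reads against 976 to 1562 reads. Its mean of 10.3 ± 1.70 RPKM dropped to 2.79 ± 0.706 RPKM (SD, n = 4), and the log2 change was -1.74 (SE 0.19, edgeR adjusted p = 0.000431). This call was kept in all 19 alternatives, with log2 changes between -1.88 and -1.59, and -1.62 without 3 weeks replicate 3. All reads on Jag2 mapped to a single place, and no gene on the opposite strand overlaps it.

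Jag1 (ENSMUSG00000027276, chromosome 2, 137081456 to 137116644) encodes the other Jagged ligand, known from suprabasal layers and the hair follicle. Its values were 42.7, 68.9, 70.2 and 51.5 RPKM at 1 week and 135, 94.6, 52.8 and 88.5 RPKM at 3 weeks. Replicates 1, 2 and 4 at 3 weeks exceeded all 1-week samples, and replicate 3 lay inside their range. Jag1 rose from 58.3 ± 13.5 to 92.7 ± 33.6 RPKM (SD, n = 4), a log2 change of 0.82 (SE 0.26, edgeR adjusted p = 0.0368). The call was close to the threshold and was kept in 9 of 19 alternatives, with adjusted p-values between 0.00957 and 0.123 from edgeR, DESeq2 or limma. Without 3 weeks replicate 3 the log2 change was 0.96 (edgeR adjusted p = 0.0108), and without 3 weeks replicate 1 it was 0.59 (edgeR adjusted p = 0.0918). The call was also lost without 3 weeks replicate 2 or any 1-week sample, with edgeR adjusted p-values between 0.0502 and 0.117. All reads on Jag1 mapped to a single place.

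Dll1 (ENSMUSG00000014773, chromosome 17, 15367354 to 15376872) encodes a Delta ligand, which is known in skin from clusters of basal stem cells. It was at 1.95, 2.28, 2.87 and 3.22 RPKM at 1 week and at 2.87, 2.35, 1.99 and 3.29 RPKM at 3 weeks. The groups covered nearly the same range, with a log2 change of 0.18 (SE 0.20, edgeR adjusted p = 0.528). A gene on the opposite strand, A930024N18Rik, overlaps 19.7% of Dll1 and had at most 23 reads in a sample.

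The ligand mixture held more Jag1 at 3 weeks. The Jag1 share of the summed ligand RPKM was 81.5% ± 4.09 at 1 week and 94.2% ± 1.23 at 3 weeks (SD, n = 4), and the groups did not overlap. Jag2 made up 14.8% ± 3.35 at 1 week and 2.94% ± 0.528 at 3 weeks. The ratio of Jag1 to Jag2 was 4.90, 6.85, 7.19 and 4.05 in the 1-week samples and 43.2, 31.8, 30.2 and 26.8 in the 3-week samples. The ratio thus differed without overlap, also in the 3-week sample of replicate 3, in which the level of Jag1 was not raised. Dll1 held 3.68% ± 0.822 and 2.84% ± 0.759, with overlapping groups. These ratios and shares were not tested.

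Rbpj (ENSMUSG00000039191, chromosome 5, 53466152 to 53657362) encodes the DNA-binding protein through which all Notch receptors act. It was the steadiest of these genes at 1 week, with 3.31, 3.56, 3.69 and 3.47 RPKM. At 3 weeks it was at 3.43, 3.30, 2.49 and 2.65 RPKM, with replicates 3 and 4 below all 1-week samples and replicate 2 just below them. After TMM scaling the groups overlapped, and the log2 change was -0.08 (SE 0.12, edgeR adjusted p = 0.647). Only 22.2% of the reads on Rbpj had a unique position, and counting nothing else turned the sign, to a log2 change of 0.13.

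The target genes did not move as a group. Hes1 (ENSMUSG00000022528, chromosome 16, 30064384 to 30067796), which encodes the best-known repressor downstream of Notch, was at 57.5, 66.0, 37.9 and 42.5 RPKM at 1 week. At 3 weeks it was at 36.1, 34.1, 34.3 and 43.4 RPKM. The 1-week samples split into a high pair, replicates 1 and 2, and a lower pair that overlapped the 3-week samples. The log2 change was -0.30 (SE 0.19, edgeR adjusted p = 0.242), and none of the 19 alternatives gave a call. The means were 51.0 ± 13.1 and 37.0 ± 4.37 RPKM (SD, n = 4).

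Nrarp (ENSMUSG00000078202, chromosome 2, 25180758 to 25183339), the gene of a small ankyrin-repeat protein that dampens Notch signalling, was at 9.99, 7.11, 16.1 and 12.7 RPKM at 1 week. It was at 12.1, 15.2, 15.6 and 24.6 RPKM at 3 weeks. Only replicate 4 at 3 weeks exceeded all 1-week samples, although all 3-week samples were above the 1-week mean of 11.5 RPKM. The log2 change of 0.72 did not pass the threshold (SE 0.28, edgeR adjusted p = 0.0808). With DESeq2 it was 0.73 and passed (adjusted p = 0.0473), and without 1 week replicate 3 it was 0.91 (edgeR adjusted p = 0.0482). Only 1.03% of the reads on Nrarp mapped to a single place, and a listed gene on the opposite strand, Gm38287, covers 99.1% of it with 0 reads in all samples. The level of Nrarp is therefore less certain than those of the other genes.

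Hey1 (ENSMUSG00000040289, chromosome 3, 8663359 to 8667256), a target known mainly from vessels and heart, had 2, 2, 1 and 3 reads at 1 week and 0, 2, 5 and 0 reads at 3 weeks. A limit of 3 reads corresponded to at most 0.0640 RPKM, and no difference was detectable at this depth. The highest value of Hey1 was 0.0932 RPKM.

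The order of the levels changed below the leading places. At 1 week Jag1 and Hes1 led, with overlapping ranges, and were followed by Nrarp, Jag2, Notch1, Notch2, Rbpj, Dll1, Notch3 and Hey1. At the steps from Hes1 to Nrarp, from Jag2 to Notch1, from Rbpj to Dll1 and from Notch3 to Hey1 the sample ranges did not overlap. Those of the other neighbours did. This order rests on all exon reads. At 1 week only 20.4% of the reads on Rbpj and 0.930% of those on Nrarp mapped to a single place, against 76.9% for Dll1. The places of Rbpj and Nrarp, and the step from Rbpj to Dll1, are therefore less certain. At 3 weeks the order was Jag1, Hes1, Nrarp, Notch2, Notch3, Notch1, Rbpj, Jag2, Dll1 and Hey1. Here Jag1 was above Hes1 and Hes1 above Nrarp in every sample, and from Nrarp down to Dll1 each gene overlapped the next.

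**Figure D3:**
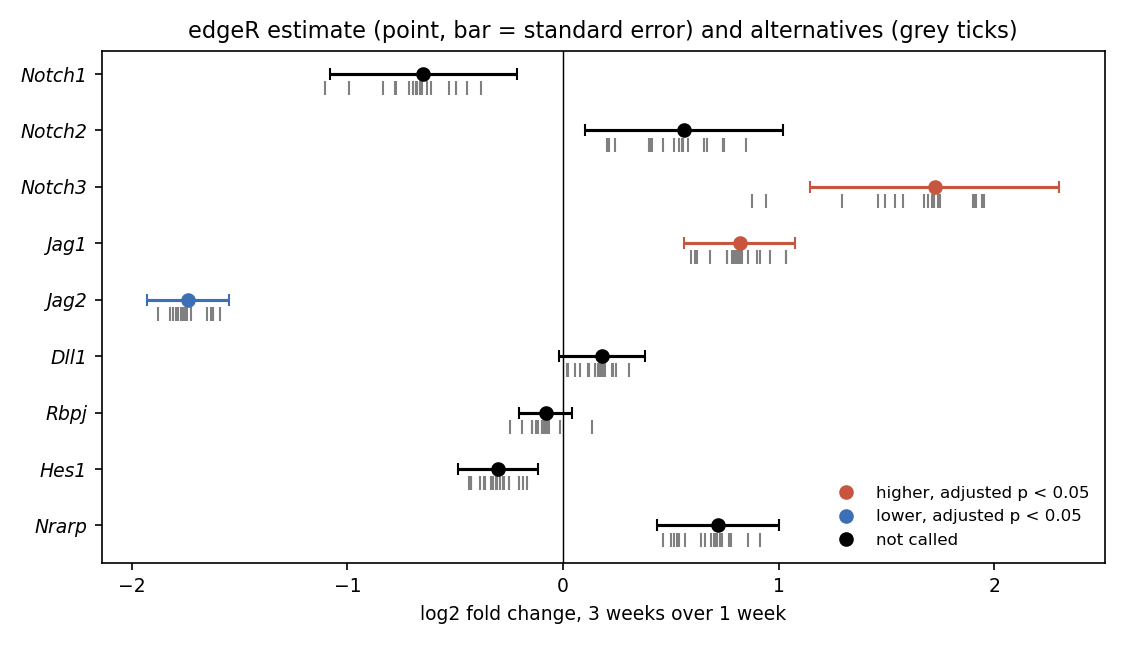
Log2 change from 1 to 3 weeks for the 9 tested genes, with the edgeR estimate as a point, its standard error as a bar and the values under the alternative settings as grey ticks. Jag2 lies between -1.88 and -1.59 in all of them, whereas the values of Notch3 spread from 0.88 to 1.95 and those of Rbpj lie on both sides of 0.

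Other genes of the pathway were followed with a list of 55 genes ordered by role, of which 44 had enough reads to be tested. In that list 9 genes (20.5% of those tested) were higher and 4 (9.09%) were lower at 3 weeks, beside 15.7% and 17.0% of all tested genes, and 31 were not called. Their median log2 change was 0.21. Of the 13 called genes, 9 kept their call in every alternative in which they were tested, and Adam10, Numb, Snw1 and Bhlhe41 did not. The fourth receptor, Notch4, which is known from endothelium, was weakly expressed but rose from 0.0841 ± 0.0180 to 0.557 ± 0.311 RPKM (SD, n = 4), a log2 change of 2.85 (edgeR adjusted p = 0.00187). Markers of endothelial cells summed to between 0.411 and 0.602 RPKM at 1 week and to between 0.275 and 0.512 RPKM at 3 weeks, and none of the 6 exceeded 1 RPKM in any sample. Dlk2, a Delta-like protein known to inhibit Notch signalling, fell from 3.88 ± 0.996 to 0.241 ± 0.116 RPKM, a log2 change of -3.82 (edgeR adjusted p = 0.000293). Dll3, Dll4 and Dlk1 had at most 4 reads in any sample.

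Of the 9 genes for receptor cleavage, 3 rose and none fell, beside 15.7% of all tested genes called higher and 17.0% called lower. Aph1b and Ncstn, which encode subunits of gamma-secretase, had log2 changes of 1.15 (edgeR adjusted p = 0.00181) and 0.86 (edgeR adjusted p = 0.00102). Adam10, the protease that makes the first cut after ligand binding, had a log2 change of 0.58 (edgeR adjusted p = 0.0110), with overlapping RPKM values. Its call was lost in 4 of 19 alternatives, in which the highest adjusted p from edgeR or limma was 0.0605. Among those not called were the protease Adam17 and Aph1a, a relative of Aph1b.

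Among the 12 tested genes for endocytosis and turnover of ligands and receptors, 3 rose and 1 fell, beside the same background of 15.7% and 17.0%. Dtx4, a Deltex ubiquitin ligase, rose from 0.184 ± 0.0545 to 1.71 ± 0.473 RPKM, a log2 change of 3.37 (edgeR adjusted p = 0.000204). Neurl1b, a Neuralized ubiquitin ligase that acts on ligands, fell from 0.433 ± 0.237 to 0.0249 ± 0.0197 RPKM, a log2 change of -3.94 (edgeR adjusted p = 0.00153). Numbl, which encodes an adaptor that counteracts Notch, had a log2 change of 0.69 (edgeR adjusted p = 0.00447). Its relative Numb was also called, at 0.59 (edgeR adjusted p = 0.0447), and is named here after its value was seen. The Numb call was kept in only 7 of 19 alternatives, and leaving out any sample other than the replicates numbered 3 took it away, with edgeR adjusted p-values between 0.0795 and 0.146. The ubiquitin ligase Mib1, which ligands need for their activity, had a log2 change of 0.13 and was not called.

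None of the 5 tested genes for receptor maturation and sugar transfer was called, beside 32.8% of all tested genes called in either direction. The nearest was Lfng, a Fringe enzyme that changes which ligands a receptor prefers, at 4.49 ± 1.28 and 1.85 ± 0.875 RPKM. Its groups did not overlap, and its log2 change was -1.10 (edgeR adjusted p = 0.0566). Of the 8 nuclear co-factors only Snw1 was called, with a log2 change of -0.40 (edgeR adjusted p = 0.0176), beside 17.0% of all tested genes called lower. Its call was lost in 5 of 19 alternatives, among them those without 1 week replicate 2 (edgeR adjusted p = 0.0524) and without 3 weeks replicate 2 (edgeR adjusted p = 0.0678). In the HES and HEY family, 6 of the 9 further genes were not tested, with between 0 and 12 reads in any sample, and Hes5 had 0 reads in all. Hes6, which is known to counteract Hes1, rose from 12.9 ± 1.68 to 19.6 ± 1.39 RPKM, a log2 change of 0.77 (edgeR adjusted p = 0.00467). Bhlhe41, a more distant relative, had a log2 change of 1.54 (edgeR adjusted p = 0.0238), and Bhlhe40 was not called. These calls of 2 of 3 tested genes stand beside 15.7% of all tested genes called higher. The Bhlhe41 call was lost in 6 of 19 alternatives, among them those without 1 week replicate 1 (edgeR adjusted p = 0.0744) and without 1 week replicate 2 (edgeR adjusted p = 0.0628). Of 5 epidermal genes that Notch is known to act with, Krt1, a keratin of spinous cells, was called lower, at -2.44 (edgeR adjusted p = 0.0132), from at most 106 reads per sample. The other 4 were not called, and 17.0% of all tested genes were called lower.

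**Figure D4:**
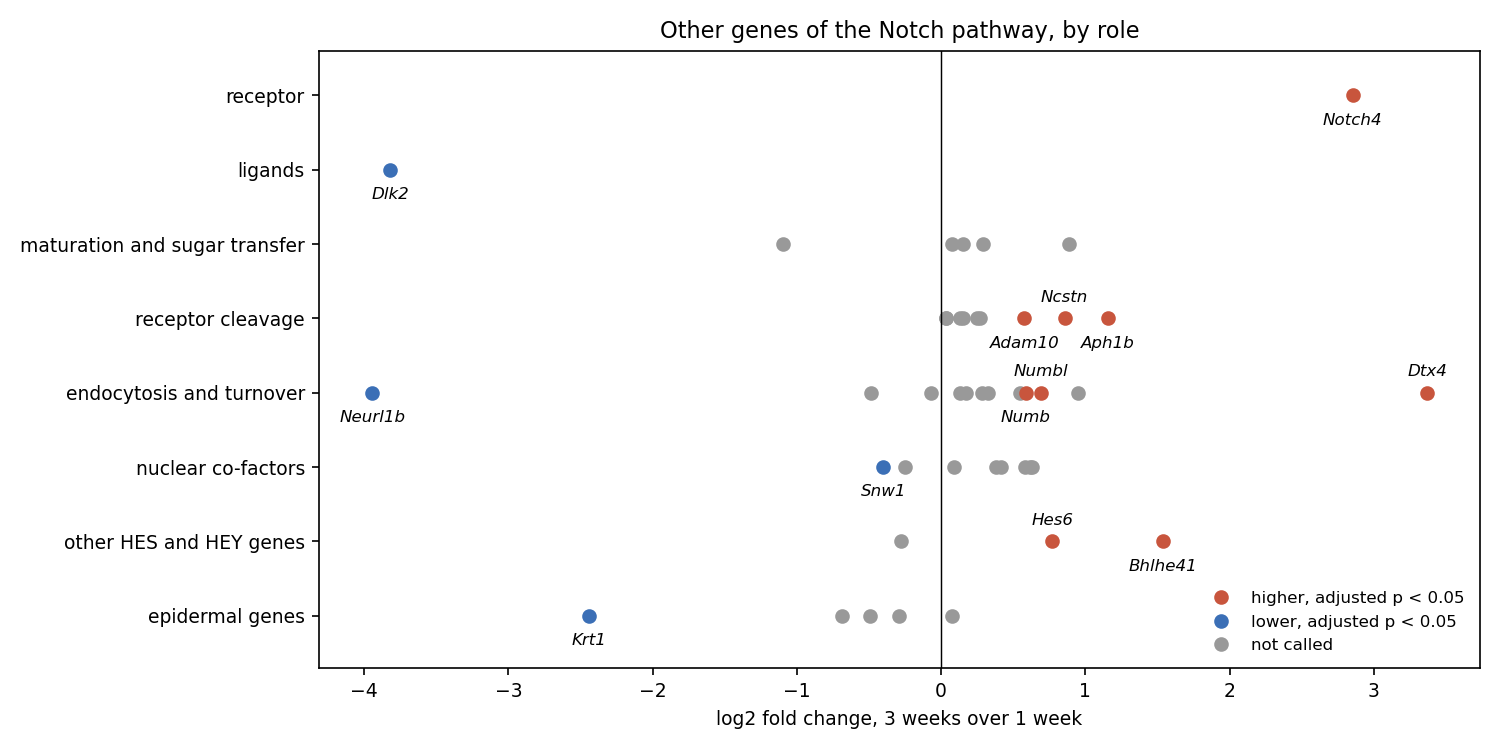
Log2 change from 1 to 3 weeks (edgeR) for the 44 tested genes of the pathway list, 1 point per gene, in rows by role. The 9 genes called higher (red) include 3 of the 9 genes for receptor cleavage, the 4 called lower (blue) lie in different roles, and grey points were not called.

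Genes whose profiles over the 8 samples were closest to the leading gene of each class were looked up by the distance between centred log2 CPM values. Nearest to Notch2 were Iqsec1, Jmjd1c and Smarca4, at distances of 0.285, 0.293 and 0.300, where the median over 11916 genes was 2.47. Nearest to Jag1 were Wwc2, Lamb1 and Lpp, at 0.390, 0.397 and 0.436, with a median of 1.84. For Hes1 these were Sgms1, Catsper2 and Trit1, at 0.161, 0.234 and 0.246, with a median of 1.33. The distances describe these 8 libraries, whose depth and composition all the genes share.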

How the data were processed

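Poly(A) RNA of 4 samples cultured for 1 week and 4 cultured for 3 weeks was analysed from the gene tables deposited for each sample. The authors used the CLC Genomics Workbench with default settings to align trimmed reads to GRCm38. The deposited counts are raw numbers of reads, given for exons (all, or uniquely placed only) and for the entire gene. The deposited RPKM values, which carry no correction for library composition, were written with decimal commas and read as numbers. The annotation release, and whether counting used the strand, are not given in the sources used here, so that reads on genes overlapped on the opposite strand (Notch1, Notch3, Dll1, Rbpj and Nrarp) are less certain.

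Groups and replicate numbers came from the deposited labels. Each sample counted as a replicate. The smallest chi-square per degree of freedom between replicates of a time point was 15.5, more than counting error alone gives. This cannot show that samples are independent, as preparation numbers 46, 49 and 90 occur at both times. The test used all exon reads in edgeR 4.0.16 under R 4.3.3 (filterByExpr, TMM, glmQLFit and glmQLFTest, no block, as the study names unpaired tests), with Benjamini-Hochberg adjustment over all 12590 tested genes and a threshold of 0.05. Standard errors came from the F statistics. The procedure was tested on simulated data. Alternatives were DESeq2 1.42.0, upper-quartile factors, no filter, at least 10 reads in every sample, uniquely placed reads, reads over the entire gene, limma 3.58.1 on log2(RPKM + 0.1) or log2(RPKM + 1), blocks for the replicate or preparation number, and the omission of each sample. Python 3.11.15 and matplotlib 3.10.9 were used for the rest.

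The 10 genes and the pathway and marker lists were chosen with earlier results of these data known. All 10 genes are named, with up to 3 called pathway genes of largest log2 fold change per role, and the 3 nearest profiles for the most abundant receptor, ligand and target, predicted genes left out. Lfng, Numb and other genes given as not called were named after their values were seen. Promoter windows came from RefSeq (GRCm38.p6), with only the 250 bases before the start used. Limits of 3 reads cover counting error only.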

Additional observations from a re-analysis of the deposited data

Results flagged for a closer look

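In 1 of the 20 groups of 4 samples examined, the RPKM values of each of the 10 genes at each time point, a single sample stood far from the others. It was the Notch3 level in 3 weeks replicate 4, at 10.8 RPKM, where the other 3-week samples lay between 1.87 and 2.80 RPKM. About 1 in 20 such groups is expected to hold a sample this far out by chance. Without this sample the log2 fold change of Notch3 was 0.88 (adjusted p = 0.0896, edgeR). The same sample had the highest 3-week values of Notch1 (6.81 RPKM), Notch2 (12.3 RPKM), Jag2 (3.30 RPKM), Dll1 (3.29 RPKM), Hes1 (43.4 RPKM) and Nrarp (24.6 RPKM), but not of Jag1, Rbpj or Hey1.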

How the results depend on the processing

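Over 170 repeats of the tested genes' log2 fold changes under alternative settings, 145 kept their direction and side of the threshold, 21 lost a call, all of Notch3 or Jag1, and 3 gained one, of Notch1 or Nrarp. In 1, Rbpj with unique reads only, the sign turned, to 0.13. Jag2 was called in all 19 alternatives. The number of the 10 genes called higher, 2 as reported, was 1 without a filter on low counts, with unique reads, with the replicate block and with the 6 samples whose preparation number occurs at both times taken without a block (an alternative added after the data were seen), and 0 in limma on log2(RPKM + 0.1) and on log2(RPKM + 1). When samples were left out in turn, the number called higher ranged from 0 to 2 and the number called lower from 1 to 2. Each of the 1-week samples, and 3 weeks replicates 1 and 2, took away the Notch3 call when left out, as did 3 weeks replicate 4. With at least 10 reads in every sample, 1 pathway gene was called lower in place of 4. Dlk2, Neurl1b and Krt1, with as few as 4, 1 and 7 reads in a sample, were not tested under this setting. The limma fits on RPKM shifted the median of all genes to -0.16 and -0.10, from 0.03, and left 29.8% of calls higher on log2(RPKM + 0.1) in place of 48.0%. The study describes the same batches of KCs at both times, but the labels do not say which samples share one. Samples with the same replicate number deviated together in only 1 of 4 pairs (mean correlation -0.07). For the preparation numbers 46, 49 and 90, found at both times in the names of the deposited tables, the correlations were -0.23, 0.20 and 0.25. For preparations 49 and 90 the best matching 1-week sample was that of the same preparation, and for 46 it was not. So few correlations cannot show whether the samples are paired. The main comparison was left unpaired because the study names unpaired tests. With the replicate block 2867 genes were called in place of 4127, with Notch3 at 1.54 (adjusted p = 0.0342, edgeR) and Jag1 at 0.78 (adjusted p = 0.106, edgeR). With the 3 preparations found at both times as a block, Notch3 was at 1.46 (adjusted p = 0.0396, edgeR), Jag1 at 1.03 (adjusted p = 0.0372, edgeR) and Jag2 at -1.63 (adjusted p = 0.00476, edgeR). With unique reads the share of Notch3 among the receptors at 1 week was 7.14% and that of Dll1 among the ligands 2.86%. Nrarp could not be tested with unique reads, and Hey1 was too low for a test.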
